A study of Homo sapiens with 4 samples.

Results

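A list of 10 genes for interferon-induced antiviral effectors was examined for IRF3 binding in MM1.S cells. They were MX1, MX2, RSAD2, CMPK2, IFI44, IFI44L, IFI6, XAF1, BST2 and SAMHD1, listed by name out of 20037 protein-coding genes. A peak was assigned to a gene when its summit lay in the gene span or up to 10 kb to either side. By this rule the genes had 18 peaks in each replicate, out of 41880 listed for replicate 1 and 41666 for replicate 2. Where a peak of replicate 1 and one of replicate 2 overlapped by at least 1 bp they were joined into a shared region, and 15 of the 32246 shared regions lay at these genes. All coordinates are on GRCh38.

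MM1.S cells are a long-established culture from a human multiple myeloma, the cancer of plasma cells, and no treatment is labelled for any sample. The series held 2 IRF3 ChIP libraries, in which chromatin fragments crosslinked to IRF3 were pulled down and sequenced, and 2 input libraries of unselected chromatin DNA. Each ChIP library was set against 1 input library by the authors, with 38568845 ChIP and 58025919 input tags in replicate 1, and 46474586 ChIP and 60348415 input tags in replicate 2. All libraries came from 1 line under 1 condition, and as no label names separate cultures, replicate spread here may be only technical. Marker genes of cell types are given as a description, since these short lists were chosen with earlier results of these data known. They are no independent check of the cell type. All 7 plasma cell marker genes had a shared region within 1 kb of a start site. The counts were 0 of 4 B cell, 1 of 3 T cell and 0 of 3 monocyte marker genes. Over all protein-coding genes the share was 51.8%. In the wider gene window the counts were 7 of 7 plasma cell, 2 of 4 B cell, 2 of 3 T cell and 2 of 3 monocyte marker genes, and 69.4% of all protein-coding genes. Peaks are not expression, and no RNA was measured.

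IRF3 is a transcription factor that rests largely in the cytoplasm until the kinases of nucleic-acid sensing pathways phosphorylate it, after which it pairs, enters the nucleus and switches on interferon beta and a set of antiviral genes. Secreted interferon then acts through its receptor to activate the transcription factor complex ISGF3, which includes STAT2 and IRF9. Both IRF3 and ISGF3 recognise variants of the interferon-stimulated response element (ISRE), whose core is a pair of GAAA repeats. The 10 effectors are classic products of this system, and several of them block viruses at entry, replication or release.

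The promoters of these genes were searched for such repeats. RefSeq start sites (GRCh38.p14) matched 9 of the 10 genes, MX2 being without an entry, and gave 16 start sites in all. Each window ran from 250 bases before the start to 50 after it. The stretches below hold every GAAA pair found in the windows they are named for, in the direction of transcription, with the pairs in capitals. Both strands were searched, so a pair on the other strand reads as TTTC repeats. They are shown because all but that of XAF1 come from windows with a peak summit within 1 kb of the start. The nearest pair lay 2 to 276 bp from the summits, and IFI44 had a summit in replicate 1 only. XAF1 is included as the gene that had no peak. The third start of MX1 is not printed. It held 1 GAAA pair and had no summit within 1 kb.
MX1, first start (chr21:41420527-41420587, plus strand): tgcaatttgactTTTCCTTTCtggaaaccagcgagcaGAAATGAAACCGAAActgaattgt
MX1, second start (chr21:41426114-41426191, plus strand): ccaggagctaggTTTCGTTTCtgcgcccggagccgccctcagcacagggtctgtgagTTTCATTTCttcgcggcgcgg
RSAD2, first start (chr2:6865721-6865845, plus strand): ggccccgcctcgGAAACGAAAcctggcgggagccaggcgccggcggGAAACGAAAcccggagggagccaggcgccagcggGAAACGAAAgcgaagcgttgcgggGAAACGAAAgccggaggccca
RSAD2, second start (chr2:6877620-6877653, plus strand): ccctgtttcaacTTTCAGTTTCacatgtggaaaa
IFI44L (chr1:78620272-78620396, plus strand): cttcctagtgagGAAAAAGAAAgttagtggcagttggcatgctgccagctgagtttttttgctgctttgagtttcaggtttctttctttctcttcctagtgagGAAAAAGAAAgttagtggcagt
IFI44 (chr1:78649759-78649797, plus strand): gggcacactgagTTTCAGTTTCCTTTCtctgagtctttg
IFI6 (chr1:27672264-27672360, minus strand): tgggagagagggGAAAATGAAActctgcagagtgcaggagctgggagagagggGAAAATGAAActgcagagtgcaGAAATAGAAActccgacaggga
BST2 (chr19:17405733-17405772, minus strand): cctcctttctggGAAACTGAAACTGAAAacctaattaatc
XAF1, second start (chr17:6756029-6756061, plus strand): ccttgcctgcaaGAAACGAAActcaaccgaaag

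GAAA pairs were frequent in these promoters. The ISRE core GAAANNGAAA, with 2 free bases between the repeats, was present at 6 of the 9 genes, against 4.16% of the 15843 protein-coding genes with a window. The tighter pair GAAANGAAA, with 1 free base, was present at 5 of 9 genes, against 3.69%. It was added to the search after the sequences were seen. One or the other was present at 8 of 9 genes, against 7.42% of protein-coding genes, and SAMHD1 had neither. The longer form GAAANNGAAACT was found at MX1, IFI44, IFI6 and BST2, and at 0.360% of protein-coding genes. IFI6 had 3 copies of the longer form. RSAD2 had 4 tight pairs at its first start, and 2 of these also lay in a window of CMPK2, whose starts face those of RSAD2. The ETS and IRF composite element GGAANNGAAA was found at 3 of 9 genes, RSAD2, CMPK2 and IFI44L, and at 3.38% of protein-coding genes. Of 8 such matches, 6 overlapped a GAAA pair. These were the 4 at RSAD2 and the 2 at CMPK2, which share part of their windows. At these genes the composite element is thus no finding apart from the tight pairs. The gamma-activated site TTCNNNGAA was found at 2 of 9 genes and 8.98% of protein-coding genes, and the GC box GGGCGG at 4 of 9 genes and 64.3%. A match describes letters only, and does not say that a factor was bound there.

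**Figure D1:**
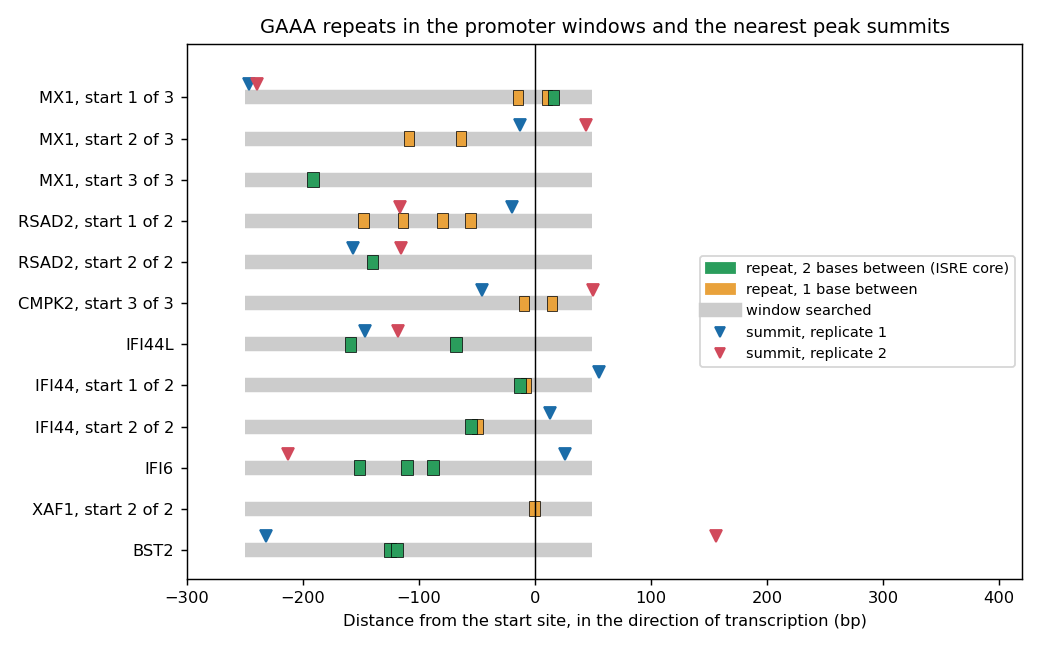
Position of GAAA pairs and of the nearest peak summit within 1 kb around the start sites that hold a pair (bp from the start, in the direction of transcription). Green boxes are pairs with 2 free bases, orange boxes pairs with 1 free base, grey bars the 300 bases searched, and triangles the summits of replicate 1 (blue) and replicate 2 (red). At RSAD2 the summits lie 36 and 2 bp from a pair at the first start, while at the first start of MX1 they lie 231 and 224 bp away. XAF1 and the third start of MX1 have no summit, and IFI44 has one in replicate 1 only.

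Most of the effector genes had an IRF3 peak at a start site in both replicates, of middling strength. A shared region lay in the gene window at 8 of 10 genes, against 69.4% of all protein-coding genes. The same 8 genes had a shared region within 1 kb of a start site, against 51.8% of all protein-coding genes. They were MX1, MX2, RSAD2, CMPK2, IFI44L, IFI6, BST2 and SAMHD1, with IFI44 and XAF1 the exceptions. Genes without a start site entry, MX2 among them, were measured from both span ends, here and in the shares over all genes. Of the 20037 protein-coding genes, 15843 had an entry. Among those with an entry and no ISRE core, 54.7% had a shared region within 1 kb of a start. RSAD2 and CMPK2 counted through 1 region that both share, so the 8 genes are not independent of each other. With 10 genes, 1 gene shifts the share by 10 percentage points, and no test of the list was made. At 5 of 10 genes the region near the start reached a fold enrichment of at least 5 in both replicates, against 29.6% of all protein-coding genes. These 5 were MX1, MX2, RSAD2, CMPK2 and IFI44L.

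Fold enrichment, the ratio of ChIP signal at the summit to the local input background, is the authors' own value for each peak. The strongest shared region near the start had a median of 5.46 in replicate 1 and 6.48 in replicate 2 over the 8 genes, against 5.55 and 8.51 over the 10373 protein-coding genes with such a region. Ranked by the mean log2 fold enrichment of both replicates among those genes, the 8 had a median percentile of 39.6, where 100 is the strongest. The region shared by RSAD2 and CMPK2 enters these medians for both genes. With it counted once, the middle gene in the order is IFI44L, at percentile 35.4. The highest was the RSAD2 and CMPK2 region at percentile 68.0, and the lowest was IFI6 at 0.742. The effector genes thus lay within the range of other promoters with a region, and none was near its upper end. The strongest peak of all reached 85.1 in the list of replicate 1, and 151 in that of replicate 2.

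**Figure D2:**
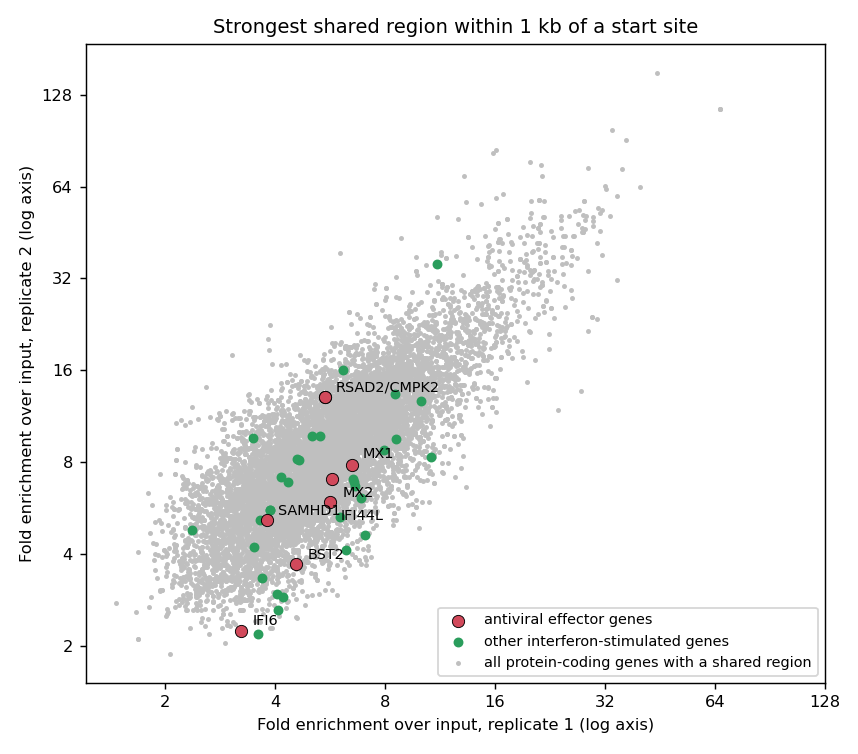
Fold enrichment over input of the strongest shared region within 1 kb of a start site, replicate 1 across and replicate 2 up, both on log axes. Red points are the antiviral effector genes with such a region, green points the other interferon-stimulated genes and grey points all protein-coding genes. RSAD2 and CMPK2 share the point at 5.46 and 13.1, MX1 lies at 6.50 and 7.85, and IFI6 lies near the lower edge at 3.23 and 2.24.

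The replicates give a spread for each value, which may be only technical. Over all shared regions the log2 ratio of replicate 2 to replicate 1 had a median of 0.25, with a 10th percentile of -0.43 and a 90th percentile of 0.97. With that offset removed, a single log2 fold enrichment had an SD of 0.39. Among the 15 regions at the effector genes, 8 were higher in replicate 2 and 7 were lower. Of all shared regions, 68.2% were higher in replicate 2. In 5 of the 15 the ratio lay outside the range between those percentiles, which by definition leaves out 10% of all shared regions at each end. With 15 regions these counts say little, and neither was tested. The summits of the replicates lay a median of 31 bp apart at these regions, from 3 to 388 bp, against a median of 48 bp over all shared regions.

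Ordered by the mean of both replicates, the RSAD2 and CMPK2 region stood first, with a mean log2 fold enrichment of 3.08 ± 0.89 (SD, n = 2). MX1 followed at 2.84 ± 0.19, MX2 at 2.67 ± 0.22 and IFI44L at 2.53 ± 0.05 (SD, n = 2 each). SAMHD1 at 2.15 ± 0.31, BST2 at 2.04 ± 0.22 and IFI6 at 1.43 ± 0.37 came last (SD, n = 2 each). The ranges of next neighbours in this order overlapped from RSAD2 down to IFI44L. IFI44L and SAMHD1 did not overlap, nor did BST2 and IFI6, while SAMHD1 and BST2 did. These means and SDs were taken without removing the offset between the libraries. With 2 replicates a gap between ranges is a description and not a test.

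**Figure D3:**
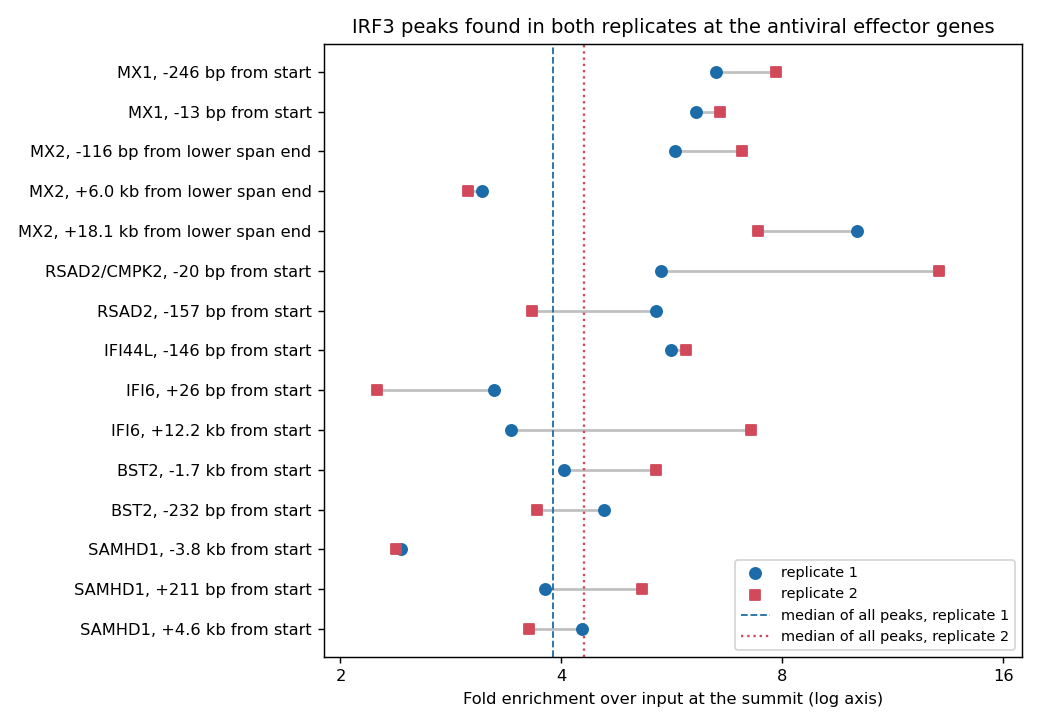
Fold enrichment over input (log axis) of each of the 15 shared regions at the effector genes, in replicate 1 (blue circles) and replicate 2 (red squares). Rows give the summit of replicate 1 relative to the nearest start site, or to the lower end of the span for MX2, and the vertical lines are the medians of all peaks, 3.90 in replicate 1 and 4.30 in replicate 2. The MX1 regions, the MX2 region at the span end and the IFI44L region have both replicates above these lines and close together, while the RSAD2/CMPK2 region and the IFI6 region 12.2 kb away have replicates far apart.

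MX1 and MX2 are neighbouring genes on chromosome 21 for dynamin-like GTPases. MX1 protein traps the nucleoproteins of influenza and other RNA viruses, and MX2 protein blocks HIV-1 before integration. MX1 (gene span chr21:41420558-41459214) had 2 shared regions, each at a start site of its own. At the first start the fold enrichment was 6.50 in replicate 1 and 7.85 in replicate 2, at percentiles 85.0 and 82.2 of the lists. The summits lay 246 and 239 bp upstream of that start. At the second start, inside the gene span, the fold enrichment was 6.10 and 6.58, with summits 13 bp before and 44 bp after the start. The summits had 122 and 110 stacked fragments at the first start and 155 and 112 at the second. Each region held its height between libraries, with log2 ratios of replicate 2 to replicate 1 of 0.27 and 0.11. The third start held 1 ISRE core and had no peak within 1 kb. The nearest summits were 5.82 kb away in replicate 1 and 3.86 kb in replicate 2. Replicate 2 alone had a weak peak of 3.11 in between, 1953 bp beyond the second start, with 23 stacked fragments at its summit.

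MX2 (chr21:41362027-41409393) had 3 shared regions, placed here from the lower end of its span. The one at the lower end of its span had 5.71 in replicate 1 and 7.05 in replicate 2, with summits 116 and 135 bp outside the span. The strongest region of MX2 lay inside the gene, 18.1 kb from that end (chr21:41379785-41380477), with 10.1 and 7.41. In replicate 1 this was the highest value at any of the effector genes, at percentile 96.6, and in replicate 2 it stood at percentile 80.1. Another region 6.02 kb into the gene was weak, with 3.12 and 2.98. Each replicate had 1 more peak that the other lacked, of 3.53 in replicate 1 inside the gene near its upper end, and of 2.99 in replicate 2 below the span. The peak below the span lay 2.92 kb from an end of FAM3B and 7220 bp from MX2.

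RSAD2 and CMPK2 act on nucleotides and lie head to head on chromosome 2, with overlapping spans. RSAD2 encodes viperin, a radical SAM enzyme that turns CTP into a chain terminator of viral RNA polymerases, and CMPK2 encodes a nucleotide kinase of mitochondria. The region that covers starts of both genes (chr2:6865447-6866228) had a fold enrichment of 5.46 in replicate 1 and 13.1 in replicate 2. The value of replicate 2 was the highest in that list at any effector gene, at percentile 94.6, and that of replicate 1 stood at percentile 75.9. The summit had 88 stacked fragments in replicate 1 and 163 in replicate 2. Their log2 ratio of 1.26 exceeded the 90th percentile of all shared regions, so the height of this region differed between libraries while it was listed in both. The summits lay 20 bp upstream of the first RSAD2 start in replicate 1 and 116 bp upstream in replicate 2. Both summits were inside the CMPK2 span, 42 bp past a CMPK2 start in replicate 1 and 50 bp past another in replicate 2. The nearest GAAA pair of the 4 printed above lay 36 and 2 bp from them.

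RSAD2 had a second shared region, at its start inside the span (chr2:6877403-6877944). The values here were 5.38 in replicate 1 and 3.65 in replicate 2, with a log2 ratio of -0.56, below the 10th percentile of all shared regions. The replicates therefore went in opposite directions at the 2 starts of this gene. The summits lay 157 and 115 bp upstream of the start, and 16 and 26 bp from the single ISRE core there. CMPK2 had no other peak in its window in either replicate.

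**Figure D4:**
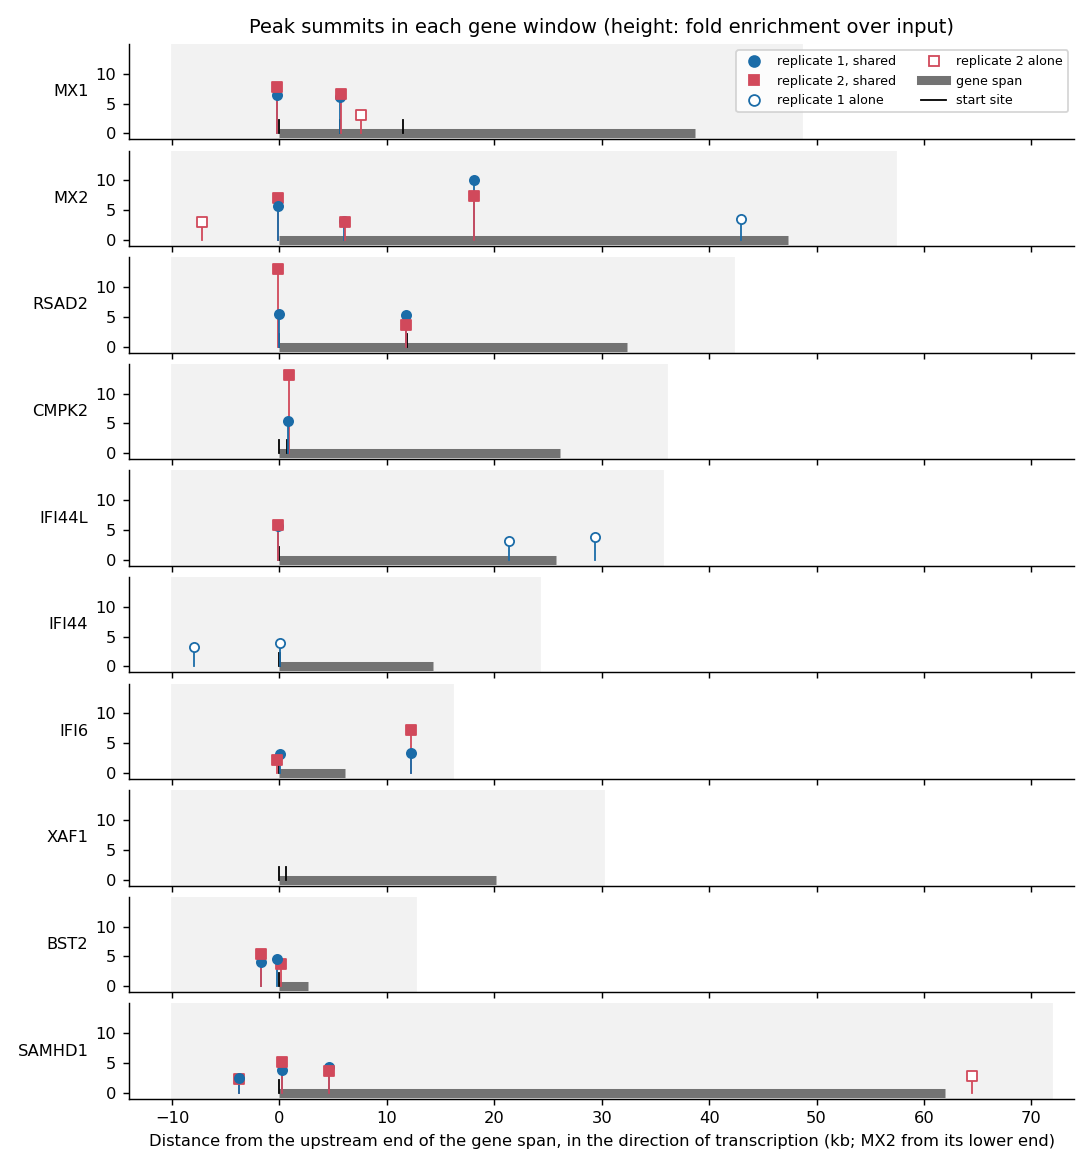
Peak summits in the window of each effector gene, drawn in the direction of transcription with 0 at the upstream end of the gene span (kb; MX2 from its lower end); stem height is fold enrichment over input. Filled markers are peaks of shared regions and open markers peaks of 1 replicate, with circles for replicate 1 and squares for replicate 2, grey bars for gene spans, pale areas for the windows and black ticks for start sites. Stems gather at the start sites in 8 genes, where the lower span end stands in for a start site at MX2. MX2 has its tallest stem of replicate 1 at 18.1 kb, IFI44 has open circles only and XAF1 is empty.

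IFI44L and IFI44 are tandem neighbours on chromosome 1 that interferon induces strongly, and their molecular roles are less settled. They differed in these lists. IFI44L (chr1:78620448-78646145) had 1 shared region, with 5.65 in replicate 1 and 5.91 in replicate 2. As listed, with the offset between the libraries not removed, these were the closest replicate values at any of the start sites. The summits of this region lay 146 and 118 bp upstream of the start, and 14 and 42 bp from an ISRE core. IFI44 (chr1:78649789-78664078) had a peak at its start in replicate 1 alone, with a fold enrichment of 3.87, 75 stacked fragments and a summit 13 bp from a start site. That peak was of middle rank in its list, at percentile 49.4. The nearest summit of replicate 2 lay 28.7 kb from that start site, outside the gene window. A further peak of replicate 1 alone, with 3.18, lay inside IFI44L, at position -7972 relative to the first start of IFI44. A place with no listed peak may still hold signal under the authors' cutoff, and signal in the absence of a peak was not analysed here.

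IFI6 encodes a small hydrophobic protein that protects cells from flaviviruses and from apoptosis. Its promoter held 3 ISRE cores, all of the longer form, yet its start had the weakest region among the 8 genes, with 3.23 in replicate 1 and 2.24 in replicate 2. The second value was at percentile 1.72 of its list. The summits lay 26 bp inside the gene and 213 bp upstream, 239 bp apart. IFI6 had a second shared region past the other end of the gene (chr1:27659534-27660150), 12.2 kb from its start, with 3.42 and 7.26. The log2 ratio of 1.09 exceeded the 90th percentile of all shared regions. This region lay 342 bp from an end of the long non-coding RNA gene LINC02574 in replicate 1 and 373 bp in replicate 2, nearer than to IFI6.

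XAF1 encodes a partner of the apoptosis inhibitor XIAP and favours cell death in response to interferon. It had no peak in its window in either replicate. The nearest summits were 97.9 kb from its second start in replicate 1 and 98.05 kb in replicate 2. Its second start carries the tight GAAA pair printed above, and its first start carries none.

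BST2 encodes tetherin, which holds budding virions at the cell surface. Its region at the start (chr19:17404829-17406779) had 4.57 in replicate 1 and 3.70 in replicate 2. The summits fell on opposite sides of the start, 232 bp upstream in replicate 1 and 156 bp inside the gene in replicate 2, 388 bp apart, the widest gap at these genes. The summit of replicate 1 was nearer to the ends of MVB12A (121 bp) and of the long non-coding RNA gene BISPR (176 bp), so the region cannot be given to BST2 alone. A second region 1.68 kb upstream had 4.03 and 5.38, and it too was nearer to MVB12A. BST2 had 2 overlapping ISRE cores, 106 and 276 bp from the summits.

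SAMHD1 encodes a phosphohydrolase that depletes the deoxynucleotides which retroviruses need for reverse transcription. It was the only gene of the 9 with start sites in the table that lacked a GAAA pair, and it still had 3 shared regions. The one at the start had 3.80 in replicate 1 and 5.16 in replicate 2, with summits 211 and 194 bp inside the gene. A region 4.63 kb into the gene had 4.27 and 3.62, with summits 3 bp apart. Another, 3.81 kb upstream, had 2.42 and 2.38, at percentiles 7.12 and 3.35. Replicate 2 alone had a peak of 2.79 past the far end of the gene. The 3 shared regions thus stood between percentiles 3.35 and 62.4 of the lists, and none reached 5 in both replicates.

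Taken by position, 9 of the 15 shared regions lay within 1 kb of a start site, or of a span end for MX2. A further 3 lay deeper inside a gene and 3 further outside. Those within 1 kb had a median fold enrichment of 5.46 in replicate 1 and 5.91 in replicate 2, against 3.72 and 4.50 for the others. The ranges overlapped, from 3.23 to 6.50 and from 2.24 to 13.1 within 1 kb, and from 2.42 to 10.1 and from 2.38 to 7.41 beyond it. Over the strongest shared region in each window, near a start or not, the medians were 5.46 in replicate 1 and 7.34 in replicate 2. Windows also held 3 peaks of replicate 1 alone, with fold enrichments of 3.18 to 3.87, and 3 of replicate 2 alone, with 2.79 to 3.11.

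A GAAA pair and a shared region within 1 kb occurred together at 8 start sites. There the median distance between summit and nearest pair was 43.5 bp for replicate 1, with 52.0 bp for replicate 2. RSAD2 and CMPK2 share pairs and a region, so they enter more than once. Over 565 promoter windows of protein-coding genes with a pair and a shared region, the medians were 193 bp (quartiles 93.5 and 314.5) in replicate 1 and 230.0 bp (quartiles 127 and 343) in replicate 2. The pairs include the tight form, which was added to the search after the effector sequences were seen. The first start of RSAD2, the second of MX1 and the CMPK2 start entered through that form only, and RSAD2 has 4 copies. The effector distances are therefore not independent of the choice of motif, and the difference was not tested. The first start of MX1, at 231 and 224 bp, was farther from its pairs than most of the 8.

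The 10 genes were set beside other interferon-stimulated genes, and the difference between the lists was not tested. Of 42 such genes outside the 10, 35 had a shared region in the window (83.3%) and 31 within 1 kb of a start site (73.8%), with 14 (33.3%) at 5 or more in both replicates. At that level stood 5 of 10 effector genes and 29.6% of all protein-coding genes. Their medians near the start were 5.05 in replicate 1 and 6.87 in replicate 2, at a median percentile of 35.6. The strongest were TRIM25, whose product attaches ubiquitin to RIG-I (11.1 and 35.6), the helicase gene DDX60 (10.1 and 12.7) and ZC3HAV1, which encodes the zinc finger antiviral protein (8.53 and 13.4). Measured by the distance in log2 fold enrichment over the 2 replicates, the 5 nearest to the median of the effector genes were the oligoadenylate synthase genes OAS1 (0.28) and OAS2 (0.29), HELZ2 (0.29), IFIT5 (0.32) and USP18 (0.34). Likeness over 2 libraries of 1 line says little.

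The listed genes of interferon receptor signalling and its control had higher values. All 11 had a shared region within 1 kb of a start, and 10 reached 5 in both replicates. Their medians were 8.03 in replicate 1 and 11.4 in replicate 2, at a median percentile of 76.7. Among the receptor genes, IFNAR1 had 8.03 and 11.2 and IFNAR2 had 8.80 and 8.37. The receptor kinase genes JAK1 and TYK2 had 7.54 and 15.4, and 5.89 and 8.76. Of the ISGF3 genes, STAT2 had 7.45 and 7.42, and IRF9 had 6.30 and 4.75. IRF9 was the one gene below 5 in a replicate. The highest values were at SOCS1, an inhibitor of JAK kinases (20.3 and 39.5), and at IRF1 (14.8 and 26.6). IRF2 had 9.48 and 12.3, and IRF7, which amplifies the interferon response, had 8.69 and 15.5. The 8 effector genes and the 11 signalling genes overlapped in both replicates, and the difference between the lists was not tested.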

How the data were processed

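Per the file headers, the authors ran MACS2 (MACS 2.1.2) on every ChIP library against an input library, without pooling, for narrow peaks at a q-value cutoff of 0.05, keeping all duplicate tags, with tags of 74 bp and fragment lengths of 267 and 251 bp. The submitters' processing notes name GRCh38, deepTools 3.3.1, BWA 0.7.15, SAMtools 1.2, Picard 2.6.0 and MACS2 2.1.1. The deposited fold enrichment is a ratio to local input, the deposited pileup is a signal of stacked fragments, and the deposited −log10 p and −log10 q came under damaged column names and were told apart by their order. Fold enrichment also depends on antibody recovery and on input depth.

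Peaks were joined into regions, placed against RefSeq genes and start sites and searched for motifs (pandas 2.3.3, numpy 2.4.6, Python 3.11.15). The joining was tested on simulated peaks. A region counted where the summit of its strongest peak in either replicate lay in the window. MX2 was measured from its span ends. The gene table gives no exons, so exon and intron were not told apart. With 1 condition, no test was planned and no p-value is given. The 10 genes were named throughout, with genes nearer to a summit, the 5 nearest and 3 strongest of 42 other interferon-stimulated genes, and genes of a list of 11 signalling genes, not all of which are reported singly here. The 10 genes and all lists were chosen with earlier results of these data known. Alternatives changed the flank, start window, overlap, peak threshold and replicates.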

Additional observations from a re-analysis of the deposited data

How the results depend on the processing

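The count of 8 genes with a shared region in the window held with flanks of 5 kb and 1 kb, with an overlap of 50% of the shorter peak, with summits at most 200 bp apart and with a −log10 q of at least 10 in both replicates, and was 7 with no flank. The count of 8 near a start was 6 with summits at most 200 bp apart and 7 at that −log10 q. Demanding a fold enrichment of at least 5 in both replicates left 5 genes in the window, 5 genes near a start and 6 of the 15 regions. With no flank 9 regions were left, since summits just outside the span no longer count, and the median fold enrichment in replicate 2 was 5.16 in place of 7.34. Peaks of replicate 1 alone gave 9 genes, IFI44 being the addition, and peaks of replicate 2 alone gave 8, with 18 peaks each. No paired analysis was possible because no result comes from a test and the inputs enter only through the authors' peak calls. The lists hold no signal outside peaks, so a weak site cannot be told from none at this depth.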

Other observations

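Over all protein-coding genes with a promoter window, the share with a shared region within 1 kb of a start was similar with and without 1 ISRE core. Genes with 1 core had one in 52.3% of cases (317 of 606), against 54.7% (8304 of 15184) of genes with no core. Genes with 2 or more cores in a window had one in 67.9% (36 of 53). For the longer form GAAANNGAAACT the shares were 61.5% with 1 copy (32 of 52) and 60.0% with 2 or more (3 of 5), against 54.6% with no copy (8622 of 15786). These shares and medians were not tested, and the effector genes are among the genes counted. GC content varied widely at the starts of the effector genes, from 32.7% to 75.7%, against a median of 62.3% over the promoter windows of protein-coding genes.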
